A study of Mus musculus with 5 samples.

Results

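The extracellular matrix genes described here code for 42 secreted proteins of mouse fibroblasts: the basement membrane laminins, nidogens and perlecan, the fibrillins, fibulins and other elastic fibre proteins, the adhesive and matricellular glycoproteins, and the proteoglycans with their small leucine-rich relatives. They were taken as a list of 42 symbols, and a gene entered through the Illumina probes that the platform annotation assigns to its symbol. Of the 42 genes, 38 had at least 1 probe and 27 had a probe above background, among 16593 genes with a probe and 8927 genes above background on these arrays. The question of the study was what changes in the transcriptome when the double-stranded RNA-binding protein TARBP2, best known as a partner of Dicer, is knocked down in cells that have no Dicer.

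All arrays came from DICER-null MEFs, mouse embryonic fibroblasts lacking the enzyme that cuts small RNAs from their precursors, of the strain C57BL/6 per the labels. The TARBP2 group had 1 array with the small interfering RNA (siRNA) siTARBP2-1 and 1 with siTARBP2-2, which are different siRNAs to the same gene, and the control group had 3 arrays, siControl-1, siControl-2 and siControl-3. The controls also lacked Dicer, so no array shows a cell with Dicer. RNA was taken 48 hours after lipid transfection. The labels name a control siRNA, whereas the design text calls the controls mock-transfected and the cells metastatic, and neither says whether the cells are 1 clone. Each TARBP2 siRNA was measured on 1 array, so an effect of that siRNA beyond TARBP2 cannot be told apart from an effect of TARBP2 loss in any gene that changed with 1 siRNA alone.

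Basement membranes are thin sheets in which a laminin network and a collagen IV network are held together by nidogens and perlecan. Elastic fibres grow on microfibrils of fibrillin, with fibulins and microfibril-associated proteins as adaptors. Matricellular proteins such as thrombospondins, tenascin-C and SPARC do little structural work and instead change how cells adhere, migrate and receive growth factors. Small leucine-rich proteins such as decorin, biglycan and osteoglycin bind collagen fibrils, and fibroblasts are a main source of most of these products.

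By its brightest probe the targeted gene, Tarbp2, was at 28.7% of the control mean with siTARBP2-1 and at 20.4% with siTARBP2-2. Another probe gave 37.6% and 20.9%. The log2 difference between the siRNAs was 0.49 on the brightest probe and 0.85 on the other, so the knockdown may have been weaker with siTARBP2-1. Median non-normalized signals were 79 to 81.9 over the 5 arrays, and 12445 to 13051 of 25697 probes were above background on each. Of 10 fibroblast markers, 9 were above background and Thy1 was not. Their summed linear signal was 7635 with siTARBP2-1, 7428 with siTARBP2-2 and 8143 to 8390 on the controls. Of the markers of other cells, 3 of 7 epithelial, 0 of 6 endothelial and 1 of 7 blood cell genes were above background. The epithelial sum was 102 with siTARBP2-1, 151 with siTARBP2-2 and 100 to 113 on the controls, and the 1 blood cell gene, Cd14, read 185, 320 and 243 to 264. Their part in the results below was not tested. In bulk RNA, fewer cells of a kind and less RNA per cell cannot be told apart.

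Which matrix genes changed differed between the siRNAs. Over both siRNAs together, 0 of the 27 genes passed the test (limma, adjusted p under 0.05), and of all 8927 genes, 0.0112% did, which was Tarbp2 alone. At an unadjusted p under 0.05, 7 of the 27 passed, and 12.9% of all genes. With siTARBP2-1, 7 of 27 passed, against 7.65% of all genes: tenascin-C (Tnc), thrombospondin-3 (Thbs3) and matrilin-4 (Matn4) rose, and nidogen-2 (Nid2), laminin alpha-2 (Lama2), spondin-2 (Spon2) and thrombospondin-2 (Thbs2) fell. With siTARBP2-2, 6 of 27 passed, against 4.27% of all genes, and all 6 fell: Nid2, Lama2, Spon2, Ogn (osteoglycin), Thbs1 and Thbs3. The siRNAs differed from each other in 6 of 27, against 7.06% of all genes: Thbs1, Thbs3, Matn4 and Ogn were higher with siTARBP2-1, and Spon2 and Thbs2 were lower. The called share of the matrix genes was 25.9% with siTARBP2-1 and 22.2% both with siTARBP2-2 and between the siRNAs, above these backgrounds. No test of the list was made. The list was chosen with earlier results of these data known, so the higher shares are not evidence of enrichment. Lama2, counted with each siRNA, met the probe filter through the control arrays alone. Without siControl-2, 2 of the 27 passed with siTARBP2-1, beside 2.86% of all genes, and 4 with siTARBP2-2, beside 0.639%.

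The split of higher and lower genes depended on how background was treated. Without background correction, 10 genes passed with siTARBP2-1, and 7 of these were higher and 3 lower, compared with 3 higher and 4 lower with it. The genes gained were Nid1, Hspg2, Fbln2 and Ecm1, at log2 changes of 0.53, 0.57, 0.31 and 0.32 (limma, adjusted p = 0.00898, 0.00777, 0.0382 and 0.0383). With siTARBP2-2, 6 passed, 2 higher and 4 lower, and the higher ones were Tnc at 0.36 and Dcn at 0.35 (limma, adjusted p = 0.0449 and 0.0469). The authors' normalized intensities gave the same splits, and a background offset of 50 gave 7 higher and 3 lower with siTARBP2-1 and 2 higher and 5 lower with siTARBP2-2. The share of all genes called rose too. It was 13.7% with siTARBP2-1 and 10.7% with siTARBP2-2, both without background correction and with the authors' intensities. With the offset of 50 it was 13.3% and 10.2%.

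The median log2 change of the 27 genes was -0.01 with siTARBP2-1 and -0.17 with siTARBP2-2, beside -0.01 and 0.02 over all genes tested. The median absolute log2 change over both siRNAs was 0.22 in the matrix genes and 0.13 over all genes. Matrix genes of a TARBP2 siRNA array and a control array differed by an SD of 0.52 to 0.74 log2 units, against 0.31 to 0.35 over all genes. Between controls the corresponding SDs were 0.16 to 0.35 and 0.17 to 0.21. Leaving out Spon2, the matrix gene with the largest change over both siRNAs, the first range became 0.43 to 0.55. All comparisons with control used the same 3 control arrays, so their values stand side by side below as separate contrasts with a shared base.

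Counted without a model, both TARBP2 siRNA arrays lay above every control for 5 of the 27 genes (Hspg2, Fbln1, Fbln2, Tnc and Dcn), against 16.2% of all genes. Both lay below every control for 5 (Nid2, Lama2, Sparc, Spon2 and Thbs1), against 15.1%. The siRNAs lay on opposite sides of all controls for 5 (Thbs3, Matn4, Bgn, Ecm1 and Tgfbi), against 19.5%. These counts of members are close to the shares among all genes, and 12 genes overlapped the control range with at least 1 siRNA.

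**Figure D1:**
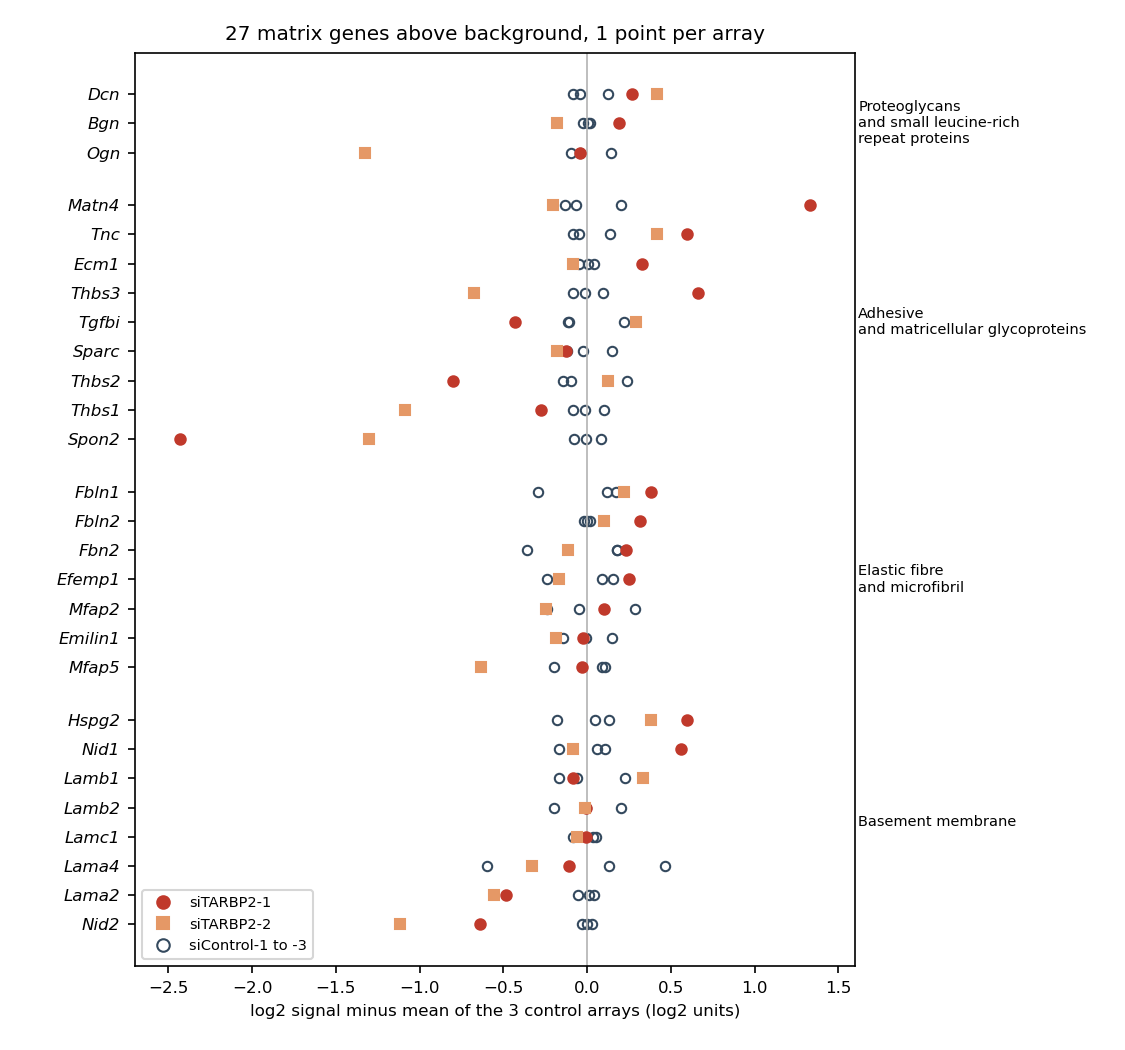
Log2 signal of 27 matrix genes on each of 5 arrays, as the difference from the mean of the 3 control arrays (x axis, log2 units), in rows by gene and grouped by role. Filled circles are siTARBP2-1, squares siTARBP2-2 and open circles the 3 controls; Spon2 and Nid2 lie to the left of the controls with both siRNAs, and Thbs3 lies on opposite sides.

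Of the genes without a result, Lama5, Fn1, Fbn1 and Efemp2 have no probe under that symbol in the annotation used. Another 11 had probes that were not well above background on the 2 arrays required: Fbln5, Eln, Sparcl1, Spon1, Postn, Matn2, Lum, Fmod, Prelp, Vcan and Mfap4. Their non-normalized signals were 53.6 to 83.1 on all 5 arrays, the highest of them just above the array medians, and Matn2 alone passed on 1 array. Of the 27 tested, 22 were above background on all 5 arrays.

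In the basement membrane, Nid2 fell with both siRNAs while its relative Nid1 passed with neither. Without background correction Nid1 did pass as higher with siTARBP2-1, at 0.53. Nid2 codes for one of the nidogens, which bridge laminin and collagen IV. The gene's log2 signal was 8.26, 8.23 and 8.29 in siControl-1, siControl-2 and siControl-3, against 7.62 in siTARBP2-1 and 7.14 in siTARBP2-2. Both siRNA arrays were below all controls, whose own range was narrow. The change was -0.64 (SE 0.11, limma's adjusted p = 0.0198) with siTARBP2-1, or 64.2% of control, and -1.12 (SE 0.11, limma's adjusted p = 0.0101) with siTARBP2-2, or 46.1%. Without siControl-2 the siTARBP2-1 call was lost, at -0.65 (limma, adjusted p = 0.0706). Over both siRNAs the change was -0.88 (SE 0.15, limma's adjusted p = 0.131), and the difference between them was 0.48 (SE 0.13, limma's adjusted p = 0.0818). Nid1, whose protein does the same bridging, had a change of 0.56 (SE 0.14, limma's adjusted p = 0.0609) with siTARBP2-1 and -0.09 with siTARBP2-2.

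Lama2 codes for the alpha chain of the laminins of muscle and peripheral nerve. Its probe was dim, at 5.31, 5.21 and 5.28 in siControl-1, siControl-2 and siControl-3, against 4.79 in siTARBP2-1 and 4.71 in siTARBP2-2 on the log2 scale, and was not well above background with either TARBP2 siRNA. All controls were above both siRNA arrays. The probe met the filter through the control arrays alone, a selection that favours a fall, so its calls are not independent of that filter. The log2 changes were -0.48 with siTARBP2-1 (limma, adjusted p = 0.0494) and -0.56 with siTARBP2-2 (limma, adjusted p = 0.0466). As bounds on the background-corrected scale, not themselves tested, the control level was at least 1.29-fold higher than with siTARBP2-1. It was at least 1.31-fold higher than with siTARBP2-2. The bounds hold for that correction only and allow for no spread among arrays. These bounds set the mean of the controls against the lowest signal of a probe well above background on the siRNA array. The Lama2 calls are at the threshold: 8 of 9 alternatives lost the siTARBP2-1 call and 7 of 9 the siTARBP2-2 call, and without background correction the log2 changes were -0.21 and -0.25.

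Hspg2, the gene of perlecan, the large heparan sulphate proteoglycan of basement membranes, was highest on the siRNA arrays. Its log2 signal was 9.60, 9.82 and 9.91 in siControl-1, siControl-2 and siControl-3, against 10.38 in siTARBP2-1 and 10.16 in siTARBP2-2. Both siRNA arrays lay above all controls, and the controls spread over an SD of 0.16. It did not pass the test, with changes of 0.60 (SE 0.15, limma's adjusted p = 0.0579) and 0.38 (SE 0.15, limma's adjusted p = 0.186). The remaining laminin chains, Lama4, Lamb1, Lamb2 and Lamc1, passed no test, with log2 changes of -0.11 to -0.01 for siTARBP2-1 and -0.33 to 0.34 for siTARBP2-2. Lamb2 and Lamc1 overlapped the controls with both siRNAs. Of the 8 basement membrane genes tested, 2 fell with each siRNA and 0 rose, beside 7.65% of all genes called with siTARBP2-1 and 4.27% with siTARBP2-2. Between the siRNAs 0 differed, beside 7.06%. These counts depended on the background treatment. Without background correction Hspg2 and Nid1 passed as higher with siTARBP2-1, at 0.57 and 0.53, and Lama2 passed with neither siRNA. Nid1 and Nid2 then differed between the siRNAs, by 0.61 and 0.36.

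**Figure D2:**
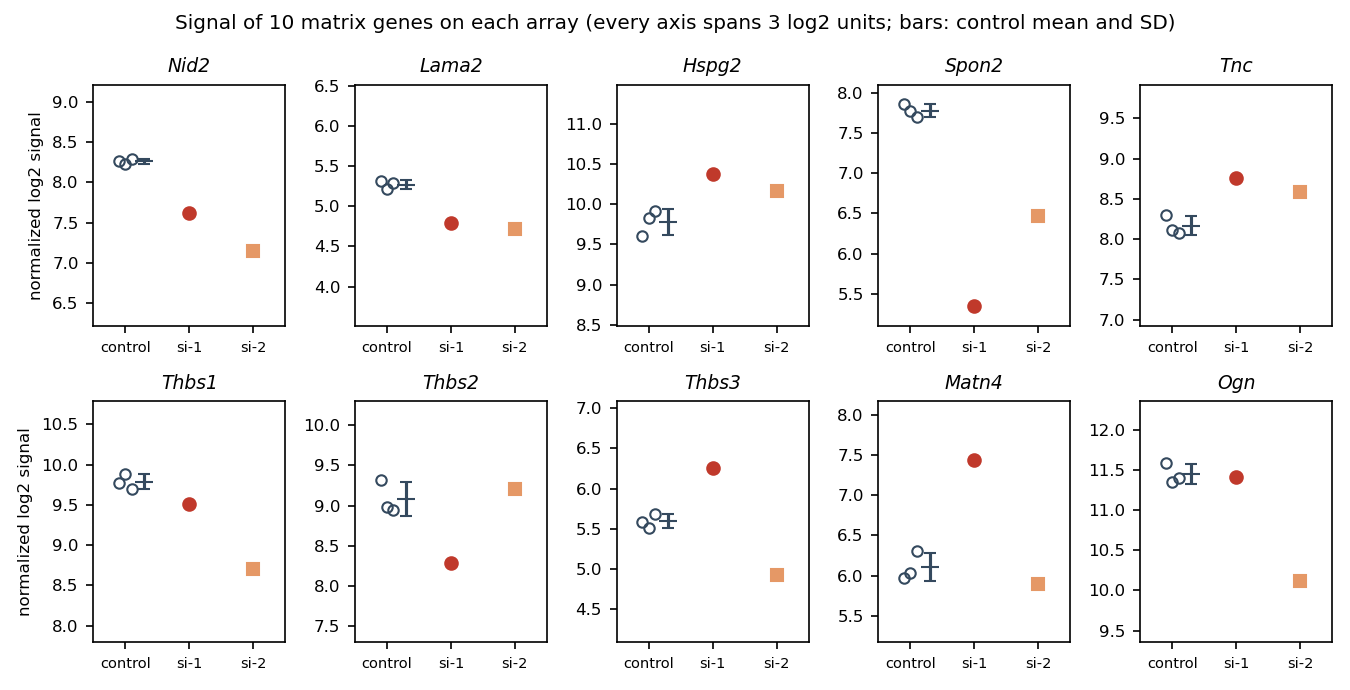
Normalized log2 signal (y axis, each panel spanning 3 log2 units) of 10 matrix genes on the 3 control arrays (open circles, with mean and SD beside them), siTARBP2-1 (circle) and siTARBP2-2 (square). Nid2, Lama2 and Spon2 are below the controls with both siRNAs, whereas Matn4 is raised with siTARBP2-1 alone and Ogn is lowered with siTARBP2-2 alone; levels of different panels come from different probes and are not comparable.

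Spon2, also called mindin, a secreted integrin ligand with a role in innate immune recognition, had the largest change of the matrix genes with siTARBP2-1 and over both siRNAs. On the log2 scale it read 7.86, 7.77 and 7.70 in siControl-1, siControl-2 and siControl-3, against 5.34 in siTARBP2-1 and 6.47 in siTARBP2-2. Both siRNA arrays were far below the controls, and siTARBP2-1 was the lower. With siTARBP2-1 it fell to 18.5% of control, or -2.43 (SE 0.12, limma's adjusted p = 0.000966) in log2 units, the lowest of the 8927 genes. With siTARBP2-2 it fell to 40.5%, or -1.303 (SE 0.12, limma's adjusted p = 0.00954) in log2 units, the 16th lowest. The difference between the siRNAs, siTARBP2-1 minus siTARBP2-2, was -1.13 (SE 0.15, limma's adjusted p = 0.01). Over both siRNAs the change of -1.87 (SE 0.29, limma's adjusted p = 0.121) was the lowest after that of Tarbp2 and did not pass the test. Without background correction the siTARBP2-1 change was -1.55 and the difference -0.60, both still past the threshold. Non-normalized signals were 91.5 with siTARBP2-1, 142 with siTARBP2-2 and 251 to 295 on the controls, so the siTARBP2-1 value lies close to background.

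The thrombospondins, calcium-binding glycoproteins that bind growth factors, proteases and cell receptors, each moved in their own way. The 4 genes that differed between siRNAs and for which a promoter window was in the reference, namely Thbs2, Thbs3, Matn4 and Ogn, are shown here by that window, since their values differed between the siRNA arrays. Each runs from 250 bases before the annotated start to 50 after it, from RefSeq on build GRCm38.p6: Thbs3 at chr3:89214930-89215229 on the plus strand, Matn4 at chr2:164405111-164405410 on the minus strand, Thbs2 at chr17:14694213-14694512 on the minus strand and Ogn at chr13:49607765-49608064 on the plus strand. Matn4 has 2 windows and the more upstream is shown; Spon2, Nid2 and Thbs1 had no entry. They are written 5′ to 3′ on the gene's strand. Capitals mark matches, on either strand, to 5 motifs. For the TATA box the letters searched were TATAAA. The second motif, known as the CCAAT box, was searched by the letters of its name. Letters of the GC box were GGGCGG. Sites for the transcription factor AP-1 were searched as TGANTCA, which reads the same on both strands. Finally, interferon-stimulated response elements were searched by their core letters, GAAANNGAA.
Thbs3: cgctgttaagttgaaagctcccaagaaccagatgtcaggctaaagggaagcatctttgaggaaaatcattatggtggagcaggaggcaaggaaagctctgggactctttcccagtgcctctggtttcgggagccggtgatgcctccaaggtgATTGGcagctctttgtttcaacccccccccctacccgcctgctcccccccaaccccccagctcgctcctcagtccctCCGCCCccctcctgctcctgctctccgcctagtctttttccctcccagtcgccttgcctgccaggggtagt
Matn4: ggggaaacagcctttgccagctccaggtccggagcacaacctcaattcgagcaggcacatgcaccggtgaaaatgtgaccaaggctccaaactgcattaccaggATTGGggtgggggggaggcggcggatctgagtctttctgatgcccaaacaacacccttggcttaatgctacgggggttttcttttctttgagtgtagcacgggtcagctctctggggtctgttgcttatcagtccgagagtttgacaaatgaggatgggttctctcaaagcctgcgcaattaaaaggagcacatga
Thbs2: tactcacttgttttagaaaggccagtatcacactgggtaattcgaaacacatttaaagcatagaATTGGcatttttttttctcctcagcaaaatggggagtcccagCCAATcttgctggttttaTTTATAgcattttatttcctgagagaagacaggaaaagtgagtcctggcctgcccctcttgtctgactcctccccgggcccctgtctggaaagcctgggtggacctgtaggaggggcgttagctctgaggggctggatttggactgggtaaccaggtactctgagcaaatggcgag
Ogn: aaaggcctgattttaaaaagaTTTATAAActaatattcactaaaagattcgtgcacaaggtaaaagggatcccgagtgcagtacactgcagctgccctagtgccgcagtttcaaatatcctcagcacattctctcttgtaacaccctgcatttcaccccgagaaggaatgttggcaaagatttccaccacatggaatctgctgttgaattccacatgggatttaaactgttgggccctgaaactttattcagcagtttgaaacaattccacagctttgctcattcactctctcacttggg

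The Thbs3 window holds a CCAAT box and a GC box on the antisense strand, 98 and 21 bases before the start. The Matn4 window holds 1 antisense CCAAT box, 146 bases before it. In the Thbs2 window there is a CCAAT box on each strand and an antisense TATA box 126 bases before the start, and in the Ogn window there are overlapping TATA matches on both strands, 229 and 227 bases before it. No AP-1 or interferon element match lies in these 4 windows. Of 32851 windows in the reference, 13.6% hold the TATA box letters, 37.4% the CCAAT box, 35.7% the GC box, 7.81% the AP-1 site and 8.56% the interferon element core. Among the 27 tested genes, 19 had a window, and 4, 7, 14, 2 and 3 of these held the 5 motifs in the same order. A gene was counted if any of its windows matched, whereas the percentages count single windows, so the figures are not in the same unit. The matches describe these letters only.

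Thbs1, which activates latent TGF-beta and blocks angiogenesis, fell with siTARBP2-2. Its log2 signals were 9.77, 9.88 and 9.70 in siControl-1, siControl-2 and siControl-3, against 9.51 in siTARBP2-1 and 8.70 in siTARBP2-2. Both siRNA arrays lay below all controls, siTARBP2-1 only just. With siTARBP2-2 it was at 47% of control, or -1.09 (SE 0.12, limma's adjusted p = 0.0125) in log2 units, and with siTARBP2-1 the change was -0.28 (SE 0.12, limma's adjusted p = 0.224). The siRNAs differed by 0.81 (SE 0.15, limma's adjusted p = 0.0254), a call that was lost without siControl-2, where limma's adjusted p was 0.0558.

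Thbs2, a close relative that also limits angiogenesis and affects collagen fibril assembly, fell with siTARBP2-1. The arrays gave log2 signals of 9.32, 8.99 and 8.94 in siControl-1, siControl-2 and siControl-3, against 8.28 in siTARBP2-1 and 9.20 in siTARBP2-2. The siTARBP2-1 array was below all controls, and siTARBP2-2 lay inside their range. The change was -0.80 (SE 0.17, limma's adjusted p = 0.0355) with siTARBP2-1, or 57.4% of control, and 0.12 (SE 0.17, limma's adjusted p = 0.701) with siTARBP2-2. The difference was -0.92 (SE 0.20, limma's adjusted p = 0.0448). Without siControl-2 the siTARBP2-1 call and the difference were lost (limma, adjusted p = 0.079 and 0.082), as they were with no filter on dim probes (limma, adjusted p = 0.091 and 0.1).

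Thbs3, of the pentameric thrombospondins, moved in opposite directions. Log2 signals were 5.58, 5.51 and 5.69 in siControl-1, siControl-2 and siControl-3, against 6.26 in siTARBP2-1 and 4.92 in siTARBP2-2. The controls lay between the siRNA arrays and overlapped neither. Non-normalized signals were 123.2 with siTARBP2-1, 81.8 with siTARBP2-2 and 100.3 to 102 on the controls. The siTARBP2-2 value thus lies close to background, and the sizes of its fall and of the difference between siRNAs are uncertain. It rose with siTARBP2-1 by 0.66 (SE 0.12, limma's adjusted p = 0.0238), or 1.58-fold, and its log2 change with siTARBP2-2 was -0.67 (SE 0.12, limma's adjusted p = 0.0374), or 62.7% of control. The difference of 1.33 (SE 0.15, limma's adjusted p = 0.0062) was called under all 10 alternatives, while over both siRNAs the change was near zero, at -0.01. The calls of the separate siRNAs held under fewer of them. The siTARBP2-1 call was lost without siControl-2, at 0.62 (limma, adjusted p = 0.0861), and when its probes were averaged (limma, adjusted p = 0.0518). The siTARBP2-2 call was lost under 6 of 10 alternatives, among them without siControl-2 and without siControl-3 (limma, adjusted p = 0.1 and 0.0575), and without background correction, at -0.30 (limma, adjusted p = 0.0607). Uncorrected, the siTARBP2-1 change was 0.35 and the difference 0.65.

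Matn4, a matrilin that links fibrillar components of the matrix, rose with siTARBP2-1 alone. Measured log2 signals were 5.97, 6.04 and 6.30 in siControl-1, siControl-2 and siControl-3, against 7.44 in siTARBP2-1 and 5.90 in siTARBP2-2. The siTARBP2-1 array was far above the other 4, and siTARBP2-2 was just below the lowest control. The change with siTARBP2-1 was 1.33 (SE 0.15, limma's adjusted p = 0.00548), or 2.52-fold, the 33rd highest of 8927 genes. With siTARBP2-2 it was -0.20 (SE 0.15, limma's adjusted p = 0.475), and the siRNAs differed by 1.54 (SE 0.19, limma's adjusted p = 0.00844). Without background correction that difference was 1.01 and still passed. The other probes of Matn4 were not above background.

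Tnc, the gene of tenascin-C, an anti-adhesive protein of wounds and tumour stroma, was highest on the siRNA arrays. Its probe read, on the log2 scale, 8.30, 8.12 and 8.08 in siControl-1, siControl-2 and siControl-3, against 8.76 in siTARBP2-1 and 8.58 in siTARBP2-2. Both siRNA arrays were above all controls. It rose by 0.60 (SE 0.13, limma's adjusted p = 0.0416) with siTARBP2-1, or 1.51-fold, against 0.42 (SE 0.13, limma's adjusted p = 0.123) with siTARBP2-2, which did not pass. The siTARBP2-1 call did not hold when siControl-2 or siControl-3 was left out, when dim probes were kept or when probes were averaged (limma, adjusted p = 0.128, 0.0714, 0.0746 and 0.0648).

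The remaining adhesive and matricellular genes passed no test. Sparc, a collagen-binding protein, was just below all controls on both siRNA arrays, with log2 changes of -0.13 and -0.18. Ecm1, a secreted glycoprotein that binds perlecan, had 0.33 and -0.08. Tgfbi, a TGF-beta-induced adhesion protein, had -0.43 with siTARBP2-1 and 0.29 with siTARBP2-2, on opposite sides of the controls, and the siRNAs differed by -0.72 (SE 0.20, limma's adjusted p = 0.0758), short of the threshold. In this group of 9, 3 rose and 2 fell with siTARBP2-1, 0 rose and 3 fell with siTARBP2-2, and 5 differed between siRNAs, beside 7.65%, 4.27% and 7.06% of all genes.

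Ogn, osteoglycin, a small leucine-rich protein that regulates collagen fibril growth, fell with siTARBP2-2 alone. The signal of its brightest probe was, in log2 units, 11.59, 11.35 and 11.40 in siControl-1, siControl-2 and siControl-3, against 11.41 in siTARBP2-1 and 10.12 in siTARBP2-2. The siTARBP2-2 array was far below the rest, and siTARBP2-1 lay within the controls. With siTARBP2-2 it was at 39.9% of control, or -1.33 (SE 0.13, limma's adjusted p = 0.0101) in log2 units, the 15th lowest of all genes. With siTARBP2-1 the change was -0.04 (SE 0.13, limma's adjusted p = 0.885), and the siRNAs differed by 1.29 (SE 0.16, limma's adjusted p = 0.00945). Both calls held under all 10 alternatives. Dcn, decorin, which binds collagen and TGF-beta, was above all controls on both siRNA arrays, with changes of 0.27 (SE 0.13, limma's adjusted p = 0.25) and 0.42 (SE 0.13, limma's adjusted p = 0.118). Bgn, biglycan, its close relative, had 0.19 and -0.18, and neither gene passed.

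**Figure D3:**
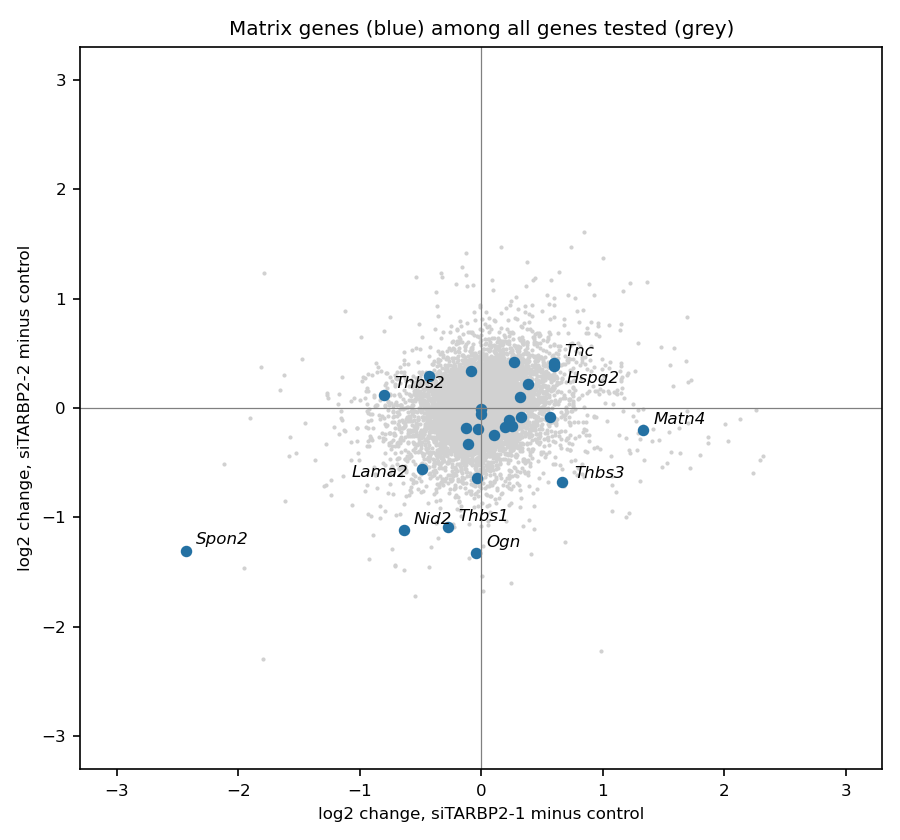
Log2 change against control with siTARBP2-1 (x axis) and siTARBP2-2 (y axis) for 27 matrix genes (blue, 10 named) and all 8927 genes tested (grey, 1 point per gene). Both axes subtract the same 3 control arrays; Spon2 and Nid2 lie in the lower left, Thbs3 and Matn4 in the lower right and Ogn near the vertical line.

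Among elastic fibre and microfibril genes, 0 of 7 passed in any comparison. The shares of all genes called were 7.65% with siTARBP2-1, 4.27% with siTARBP2-2, 7.06% between the siRNAs and 0.0112% over both. Fbn2 and Mfap2, for a fibrillin and a microfibril-associated protein, were dim, and with siTARBP2-2 neither was well above background. Mfap5, another microfibril-associated protein, was not above background with siTARBP2-2 either. Its log2 change there was -0.64 (limma, adjusted p = 0.067). As an untested bound on the background-corrected scale, the controls were at least 1.39-fold higher. Fbln1 and Fbln2, fibulins that bridge several matrix networks, lay above all controls on both siRNA arrays by their brightest probes, with log2 changes of 0.38 and 0.32 for siTARBP2-1 and 0.22 and 0.10 for siTARBP2-2. Efemp1 and Emilin1 overlapped the controls with at least 1 siRNA. For Fbln1, Fbln2, Efemp1 and Emilin1, the 4 above background on both siRNA arrays, the difference between siRNAs was 0.16 to 0.42, and none passed.

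Where a gene had several probes above background, these could be set against each other. The other Ogn probes fell with siTARBP2-2 as well, at -1.10 (SE 0.14, limma's adjusted p = 0.0183) and -1.09 (SE 0.12, limma's adjusted p = 0.0125). Of the other Tnc probes, 1 rose with siTARBP2-1, by 0.57 (SE 0.12, limma's adjusted p = 0.0334), and the others had 0.55 (SE 0.14, limma's adjusted p = 0.0584) and 0.05. The 2 further Thbs3 probes, dimmer on the controls, had changes of the same signs that did not pass. These were 0.53 and 0.14 with siTARBP2-1 and -0.40 and -0.20 with siTARBP2-2, where all Thbs3 probes were close to background. The probes of Fbln2 disagreed: a dim one rose with siTARBP2-1 by 0.75 (SE 0.12, limma's adjusted p = 0.0173), while the brightest had 0.32 and another -0.05. The probes of Fbln1 disagreed too, with further ones at -0.12 and 0.27 with siTARBP2-1 and -0.12 and 0.02 with siTARBP2-2, and none passed. In Sparc the second probe had 0.34 with siTARBP2-1, opposite in sign to the first, and neither passed.

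**Figure D4:**
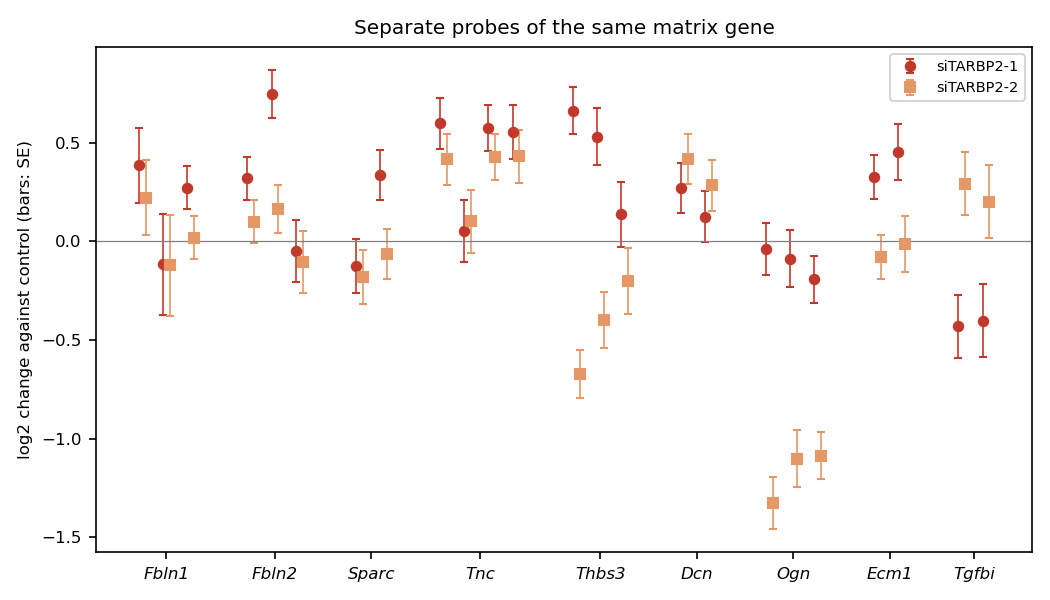
Log2 change against control (y axis, bars are the SE of the limma fit) of each probe above background for the 9 matrix genes with several such probes, with siTARBP2-1 (circles) and siTARBP2-2 (squares); the first probe of each gene is the brightest. All 3 Ogn probes are low with siTARBP2-2, whereas the Fbln1, Fbln2 and Sparc probes do not move together.

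The receptors that bind these proteins, 28 integrins, syndecans, dystroglycan and related genes, were set beside them, with 19 above background. With siTARBP2-1, 1 of 19 rose and 2 fell, beside 7.65% of all genes called. Itgb4, an integrin subunit of hemidesmosomes that binds laminin, rose and was not above background on any control array. It met the probe filter through the TARBP2 siRNA arrays alone, a selection that favours a rise. Its log2 change was 0.69 (SE 0.12, limma's adjusted p = 0.0216). As a bound on the background-corrected scale, which was not itself tested, it was at least 1.26-fold higher. Sdc1 and Sdc2, cell-surface heparan sulphate proteoglycans, had changes of -0.56 (SE 0.13, limma's adjusted p = 0.0455) and -0.68 (SE 0.12, limma's adjusted p = 0.0198). With siTARBP2-2, 1 of 19 passed, beside 4.27% of all genes and near that share. It was Itga6, the partner of Itgb4, which rose by 0.79 (SE 0.13, limma's adjusted p = 0.0302). Its level was above background on 1 of the 3 control arrays, so the size of this change is uncertain. Over both siRNAs and between them, 0 of 19 passed, beside 0.0112% and 7.06% of all genes. The median change was 0.15 over both siRNAs, beside 0.00059 over all genes, with 14 of 19 above zero, beside 4471 of all 8927.

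Of 25 genes that crosslink or assemble the matrix, 20 were tested. Lox, lysyl oxidase, which crosslinks collagen and elastin, fell with siTARBP2-2, at -0.79 (SE 0.11, limma's adjusted p = 0.021), and had -0.39 (SE 0.11, limma's adjusted p = 0.0815) with siTARBP2-1. No other gene of this group passed in any of the 4 comparisons. The count was thus 1 of 20 with siTARBP2-2, beside 4.27% of all genes and near that share. With siTARBP2-1 it was 0 of 20, beside 7.65%. The median change of the 20 genes was 0.01 over both siRNAs.

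Per RefSeq accession, a single log2 value and a mark on those called higher stand in the authors' deposited table; its direction, TARBP2 siRNA over control, was taken from its match to the signals. It holds 39 accessions of matrix genes and marks 5 as higher, or 12.8%, against 8.67% of all its 18744 accessions. In the authors' deposited table the marked genes are Nid1 (log2 0.21), Tnc (0.14), Dcn (0.14), Ecm1 (0.11) and 1 accession of Fbln2 (0.11). The same authors' deposited table has Spon2 at -0.82, Thbs1 at -0.57, Nid2 at -0.54, Ogn at -0.44, Thbs2 at -0.25 and Lama2 at -0.11. It also lists Efemp2, a fibulin needed for elastic fibres, at -0.43 and Fbn1, the main fibrillin, at -0.17, both without a probe under that symbol here.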

How the data were processed

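The deposited table of non-normalized data gives 1 linear intensity and 1 detection p-value per probe and array for 5 Illumina BeadChips, and lumi is named in the submitters' processing notes, with no version or settings. The series matrix holds the authors' normalized intensities on a linear scale, with column medians of 80.3 to 80.4; its quantiles nearly coincide, genes are not centred, and other steps the authors took are unknown. Log2 fold changes per accession, with a score of 1 where marked higher, are in the authors' deposited table.

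Intensities were background corrected and quantile normalized with limma 3.58.1 in R 4.3.3 (neqc, offset 16) and taken to log2. The deposited detection p-values of siTARBP2-2 did not follow its signals (Spearman correlation 0.0006; other arrays -0.961 to -0.967) and were replaced, once the values had been seen, by the mean p-value that probes of equal signal rank had on the remaining 4 arrays. The replaced p-values entered the background correction of siTARBP2-2 and the probe filter. Its background-corrected log2 values and changes rest on them, as do statements on its background. Probes with a detection p-value under 0.05 on at least 2 arrays were kept (13123 probes, 12341 with a symbol), and a gene was read from its brightest kept probe. The platform annotation named 23978 probes with 1 symbol, 0 with several and 1719 with none.

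limma's lmFit and eBayes were fitted across all kept probes with Benjamini-Hochberg adjustment, once for both siRNAs against control (3 residual degrees of freedom) and once with a coefficient for each siRNA and their difference (2 residual degrees of freedom). The second fit assumes that a lone siRNA array varies like the controls. The fits were tested on simulated data in which all arrays varied alike and both siRNAs had the same effect. Such data cannot check that assumption or the difference between the siRNAs. The labels do not say that arrays come from separate cultures, so p-values reflect variation among these samples that may be technical, and the number of arrays limits the precision. Full statistics were given for genes passing any test and for the 3 highest and 3 lowest over both siRNAs. The gene list, its role groups and the receptor and crosslinking lists were chosen with earlier results of these data known. Same-numbered arrays were not paired, as the labels do not say that a shared number marks a batch. Their deviations from group means had correlations of -0.0485 and -0.0266. These cannot decide on pairing, since the deviations of the 2 TARBP2 siRNA arrays mirror each other. Alternatives were the background correction, normalization, probe filter, probe summary, the series matrix, each array left out and the replicate number as a block.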

Additional observations from a re-analysis of the deposited data

Results flagged for a closer look

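In 6 matrix genes the test of the difference between the siRNAs passed (limma, adjusted p under 0.05). As siTARBP2-1 minus siTARBP2-2 on the log2 scale, the differences were 1.54 for Matn4, 1.33 for Thbs3, 1.29 for Ogn and 0.81 for Thbs1, which were higher with siTARBP2-1, and -1.13 for Spon2 and -0.92 for Thbs2, which were lower. Spon2 fell with both siRNAs and differed in size. Matn4 rose and Thbs2 fell with siTARBP2-1, Ogn and Thbs1 fell with siTARBP2-2, and none of these 4 passed with the other siRNA, though Thbs1 was below all controls with both. Thbs3 moved in opposite directions, with a siTARBP2-2 signal close to background. Without siControl-2 the differences of Thbs1 and Thbs2 did not pass (limma, adjusted p = 0.0558 and 0.082). Each siRNA has 1 array, so array, culture and siRNA cannot be told apart in these values.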

How the results depend on the processing

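Among 19 calls of 9 matrix genes, 10 held under each alternative run: Spon2 in all 3 comparisons, Matn4 and Ogn in both of theirs, Nid2 and Thbs1 with siTARBP2-2, and the Thbs3 difference. Losses numbered 3 without background correction, 2 with an offset of 50, 1 with median scaling, 3 with the series matrix, 6 with no filter, 3 with the mean of probes and 0 of 17 with probes detected on all 5 arrays. Without siControl-1, siControl-2 and siControl-3, 2, 9 and 4 calls were lost. The count with siTARBP2-1, 7, became 4 with no filter and 2 to 7 with 1 control left out, the 2 without siControl-2. The count over both siRNAs, 0, was 0 to 7 with 1 array left out, namely 7 without siTARBP2-2 and 6 without siTARBP2-1, where it becomes the comparison of the siRNA that is left. The count between siRNAs, 6, became 11 without background correction, 10 with an offset of 50 and 11 with the series matrix, all with the first 6 among them; with siTARBP2-2 it was 4 to 7. Over both siRNAs, Thbs3 (-0.01) turned to 0.029 without background correction, 0.033 with an offset of 50, 0.028 with the series matrix, 0.0088 with the mean of probes and 0.041 with the replicate block, and ran from -0.67 to 0.66 with 1 array left out. Likewise Thbs2 ran from -0.80 to 0.12 and Matn4 from -0.20 to 1.33. The replicate block left 0 genes called over both siRNAs, and it could not be fitted with a coefficient per siRNA, which leaves no residual degrees of freedom. No scaling moved the median of all genes by as much as 0.1. The causes were not tested.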
